A study of Mus musculus with 6 samples.

Results

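Ketone body synthesis and export is represented here by 5 genes of 24421 in the table, Bdh1, Bdh2, Acat1, Slc16a1 and Slc16a6, each found by its gene symbol. Hepatic mRNA was sequenced from 3 wild-type (WT) mice and 3 mice heterozygous for a germline null allele of Pai-1 (Pai-1+/-), the gene that encodes plasminogen activator inhibitor-1. Both groups were C57BL/6 mice, 21 weeks old, in the sample labels, with the substrain given by the study as C57BL/6J, and had free access to a standard chow (SC) diet. The study used males, bred the heterozygotes from Pai-1-/- and WT mice, and described the WT mice as littermates. The null allele is present in every cell, and the measured tissue is whole liver. All levels given here are the authors' means over WT and Pai-1+/- libraries together, so they describe the liver of this cohort and not the effect of the genotype. No value per mouse and no difference between WT and Pai-1+/- livers is reported, because the columns of counts per animal carry numbers that no label ties to a sample of the series or to a genotype, and they were not used.

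The liver makes ketone bodies from the acetyl-CoA that fatty acid oxidation releases, mainly during fasting, and exports them as fuel for brain, heart and muscle. In the mitochondria, thiolase (Acat1) joins acetyl-CoA units into acetoacetyl-CoA, from which acetoacetate is made, and Bdh1 reduces acetoacetate to beta-hydroxybutyrate. Both ketone bodies leave the hepatocyte through monocarboxylate transporters of the Slc16 family. The liver is known to hold little of the enzyme encoded by Oxct1, which other tissues need to burn ketone bodies.

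The authors' mean normalized count is the mean over libraries of the counts after division by a size factor, which corrects for differences in depth. Over the 24421 genes these means summed to 30045982, of which the 10 most abundant genes took 16.8%. A mean normalized count above 10 was reached by 12971 genes, referred to as the genes within range. To compare genes of different length, the means were scaled to a sum of 1000000, and this scaled count was divided by the length in kilobases of the longest transcript in the GENCODE M21 annotation. The result is the level. A level could be computed for 12499 of the genes within range (96.4%), and their median level was 4.29. Hepatocyte markers had the highest levels of the marker lists, with the 5 genes of that list at levels from 1494 for Serpina1c to 35271 for Alb. The lists hold different genes, so a gap in level between lists does not measure the share of each cell type. Markers of Kupffer cells (2.65 to 38.8), liver endothelial cells (2.35 to 21.1), stellate cells (2.39 to 29.5) and cholangiocytes (1.18 to 2.16) were also present, as whole liver holds these cells. In such bulk samples, fewer cells of a type and less RNA per cell cannot be told apart. The T cell markers lay at 0.140 and 0.225, the skeletal muscle markers at 0.00838 and 0.0745 and the adipocyte markers at 0.0561 and 0.203. Of the red cell markers, Alas2 had a level of 34.9 while Hbb-bs and Hba-a1 are listed at 0. Why the red cell markers differ in this way was not tested.

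All 5 ketone body genes were within range, at levels that spanned 98.0-fold from Slc16a6 to Acat1, and between 33.7-fold and 113-fold over 4 ways of measuring gene length. The first enzyme of the pathway, Acat1, was the most abundant, followed by Bdh1, Slc16a1, Bdh2 and Slc16a6. The plot of all genes within range places Acat1, Bdh1 and Slc16a1 in the upper tail and Bdh2 and Slc16a6 below the median. Among all genes with a mean above 0, Bdh2 lay above the median, at percentile 57.3, and Slc16a6 at percentile 49.1. The order was the same when the coding length, the median length of the protein-coding transcripts or the merged exons replaced the longest transcript. The values are single means without a spread between mice, so which neighbours in this order differ by more than the variation between animals is not stated here.

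**Figure D1:**
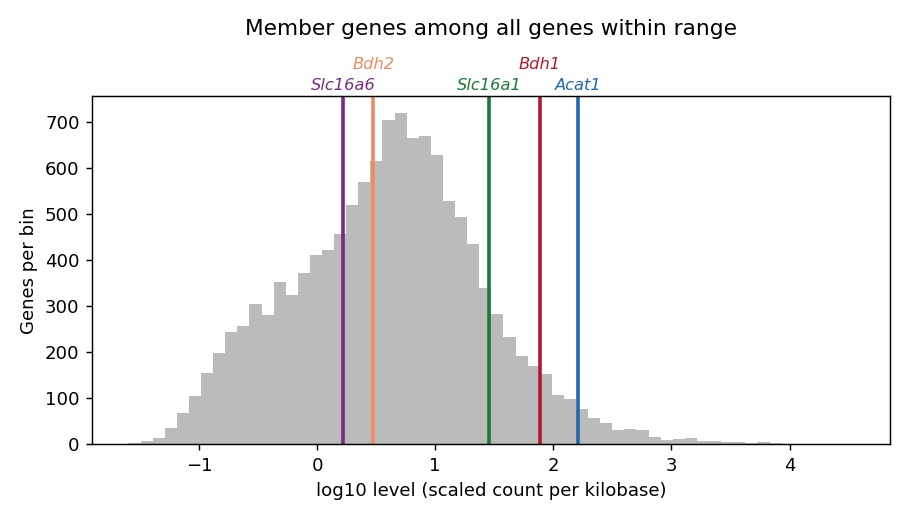
Histogram of the level (the authors' mean normalized count scaled to a sum of 1000000, per kilobase of the longest transcript, log10 axis) of 12499 genes within range, with a vertical line at each of the 5 ketone body genes. Acat1 (162.7), Bdh1 (77.1) and Slc16a1 (28.5) lie to the right of the median of 4.29, whereas Bdh2 (2.996) and Slc16a6 (1.66) lie to its left, and with genes below the range included Bdh2 moves above the median, to percentile 57.3.

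Among the enzymes, Acat1 encodes the mitochondrial acetoacetyl-CoA thiolase, which also acts in isoleucine breakdown. Its mean normalized count was 16646, or a scaled count of 554, and its level of 162.7 ranked 345 of 12499 genes, at percentile 97.2. The gene spans 29.9 kb on the minus strand of chromosome 9 (53580522 to 53610382, GRCm38, the assembly named mm10), and its 12-exon coding transcript of 3.405 kb is the longest of 3 annotated transcripts. The encoded protein has 424 residues. No exon of another gene overlaps it, and none of its 3681 distinct stretches of 75 bases, the read length of the study, occurs in a transcript of another gene. This includes its relatives Acat2 and Acat3.

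Bdh1 encodes the mitochondrial dehydrogenase that interconverts acetoacetate and beta-hydroxybutyrate. The mean normalized count was 7323, or a scaled count of 244, and the level of 77.1 ranked 715, at percentile 94.3. Per kilobase of the longest transcript, Acat1 was 2.11-fold above Bdh1. This difference depended on the length used, from 1.07-fold with the median length of the protein-coding transcripts to 2.35-fold with merged exons. The gene spans 36.6 kb on the plus strand of chromosome 16 (31422280 to 31458901, GRCm38) with 7 annotated transcripts. Its longest transcript, of 3.162 kb in 8 exons, is annotated as a target of nonsense-mediated decay, while the coding part is 1.029 kb for 343 residues.

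Bdh1 has a pair of RefSeq start sites, and the gene Gm15743 runs antisense across the downstream one. The exons of both genes share 533 bases, or 13.7% of the merged exons of Bdh1, and 385 of the 3953 distinct stretches of 75 bases of Bdh1 (9.74%) occur in Gm15743. The level of Gm15743 was not analysed here. The source of the counts does not state whether reads were counted by strand, so reads from these shared bases cannot be told apart if strand was not used. Both start windows are shown because the overlap falls on 1 of them. Each window runs from 250 bases before to 50 bases after the start, taken from RefSeq on GRCm38.p6, plus strand. Capitals mark bases that are exonic in both Bdh1 and Gm15743, of which the upstream window at chr16:31422047-31422346 has 0 and the downstream window at chr16:31428503-31428802 has 55.
Bdh1 upstream start: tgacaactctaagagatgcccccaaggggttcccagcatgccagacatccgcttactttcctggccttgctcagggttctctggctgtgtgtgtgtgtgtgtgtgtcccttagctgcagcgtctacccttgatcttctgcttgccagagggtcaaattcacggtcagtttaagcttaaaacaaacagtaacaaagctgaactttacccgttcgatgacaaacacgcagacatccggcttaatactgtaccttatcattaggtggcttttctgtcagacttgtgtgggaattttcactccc
Bdh1 downstream start: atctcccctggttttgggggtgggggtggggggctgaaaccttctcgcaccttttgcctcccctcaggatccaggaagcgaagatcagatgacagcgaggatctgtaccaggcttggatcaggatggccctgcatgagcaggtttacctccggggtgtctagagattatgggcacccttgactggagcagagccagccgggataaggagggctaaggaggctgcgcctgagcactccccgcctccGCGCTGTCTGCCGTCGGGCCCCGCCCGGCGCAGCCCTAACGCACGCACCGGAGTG

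The upstream window contains 7 CpG dinucleotides and the downstream window 17. Of 32851 windows of the same length over the RefSeq genes, 52.1% hold at least 7 and 31.4% at least 17. A mean over whole genes does not show which start the reads came from.

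Bdh2, despite its name, encodes a cytosolic short-chain dehydrogenase that can also use beta-hydroxybutyrate. It is otherwise known for a role in making a mammalian siderophore, a small molecule that binds iron. The mean normalized count was 282, or a scaled count of 9.39, and the level of 2.996 ranked 7242, at percentile 42.1. Bdh1 was thus 25.7-fold more abundant than Bdh2 per kilobase, and between 18.1-fold and 28.4-fold over the 4 lengths. Bdh2 spans 23.2 kb on the plus strand of chromosome 3 (135281221 to 135304426, GRCm38). The longest of its 4 transcripts, of 3.134 kb, is a single-exon retained intron, whereas the coding part is 0.765 kb for 255 residues. The level of Bdh2 was 12.3 by coding length, and that of Bdh1 was 237. Of the 4247 distinct stretches of 75 bases in Bdh2, 0 occur in another gene.

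Among the transporters, Slc16a1 encodes monocarboxylate transporter 1, which carries lactate, pyruvate and ketone bodies together with a proton. The mean normalized count was 3788, or a scaled count of 126, and the level of 28.5 ranked 1668, at percentile 86.7. Bdh1 was 2.71-fold above it per kilobase of the longest transcript, and between 2.20-fold and 5.34-fold over the 4 lengths. Slc16a1 was in turn 9.51-fold above Bdh2, and between 3.38-fold and 12.9-fold over the 4 lengths. Slc16a1 spans 19.8 kb on the plus strand of chromosome 3 (104638668 to 104658462, GRCm38) and has 1 annotated transcript, of 4.426 kb in 5 exons, which encodes 493 residues. With 1 transcript, its level was the same by longest transcript, median coding transcript and merged exons. Its exons overlap no other gene.

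Slc16a6 is the transporter that genetic work in zebrafish linked to the release of beta-hydroxybutyrate from hepatocytes. The mean normalized count was 211, or a scaled count of 7.01, and the level of 1.66 ranked 8604, at percentile 31.2, the lowest of the 5 genes. Slc16a1 was 17.2-fold more abundant than Slc16a6 per kilobase, and between 5.90-fold and 22.2-fold over the 4 lengths. Bdh2, the next higher gene, was above Slc16a6 by 1.80-fold, with a range from 1.54-fold to 3.19-fold. The gene spans 22.7 kb on the minus strand of chromosome 11 (109450855 to 109473598, GRCm38) with 5 transcripts, of which the longest has 4.219 kb in 6 exons. The longest coding part annotated for any of its transcripts is 1.821 kb, for 607 residues.

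**Figure D2:**
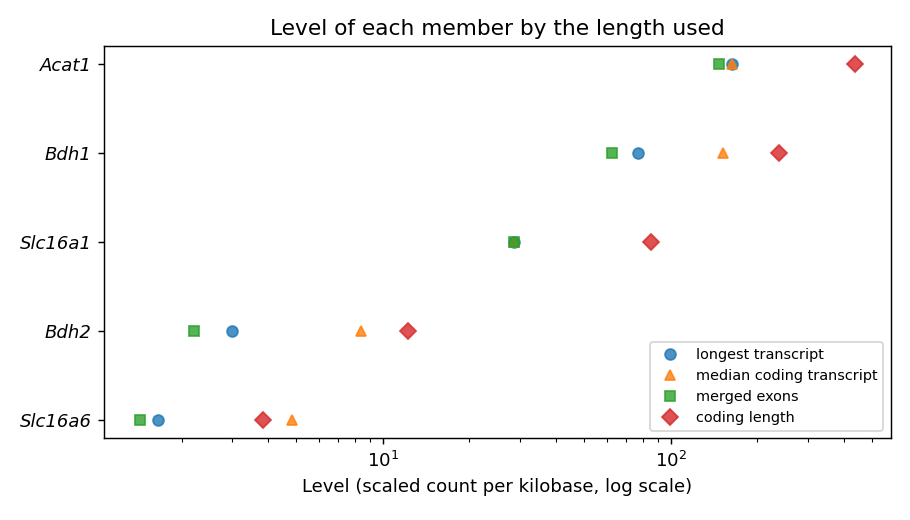
Level of each ketone body gene (scaled count per kilobase, log axis) when the length is that of the longest transcript (circles), the median protein-coding transcript (triangles), the merged exons (squares) or the coding sequence (diamonds). The order of the genes is the same for each symbol, and Acat1 and Bdh1 come closest with the median protein-coding transcript, at 162.7 and 152.

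Slc16a6 was also the member with the largest share of its exon bases in exons of other genes. Its exons share 1052 bases with Amz2, a gene on the opposite strand at the end of Slc16a6, and 48 bases with Arsg, on the opposite strand at its start. The Amz2 overlap covers 21.5% of the merged exons of Slc16a6. Amz2 had a mean normalized count of 503 and Arsg of 1186, against 211 for Slc16a6. Of 4927 distinct stretches of 75 bases in Slc16a6, 982 (19.9%) also occur in Amz2, and a further 12 occur in genes elsewhere in the genome. The share of the Slc16a6 count that came from Amz2 was not tested, and whether reads were counted by strand is not stated. Bdh1 and Slc16a6 were the members with exon bases shared with the opposite strand, while Acat1, Bdh2 and Slc16a1 had none.

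**Figure D3:**
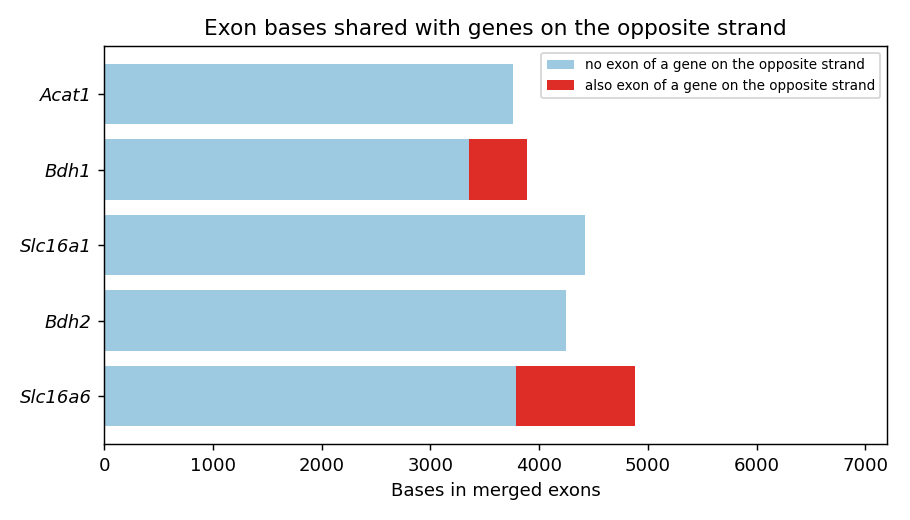
Bases in the merged exons of each ketone body gene in GENCODE M21, divided into bases that overlap an exon of a gene on the opposite strand (red) and those that do not (blue). The red part is 533 bases in Bdh1 and the sum of 1052 and 48 bases in Slc16a6, and it is absent in Acat1, Bdh2 and Slc16a1.

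The other genes of ketone metabolism described here, which act mainly in the use of ketone bodies, were low beside Acat1 and Bdh1, with 2 of 5 within range. Oxct1, the enzyme that activates acetoacetate for oxidation, had a level of 1.04, and Bdh1 was 73.8-fold higher. Aacs, which activates acetoacetate in the cytosol for lipid synthesis, had a level of 7.91. Hmgcll1 and Oxct2b were below the range, with mean normalized counts of 1.64 and 0.342, and Oxct2a is listed at 0.

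Of the 13 other Slc16 genes and chaperones described here, 9 were within range, and the list had a median level of 1.30. Slc16a10, an aromatic amino acid transporter, was close to Slc16a1 with a level of 27.8. Slc16a12, a transporter of creatine, followed at 21.4, then Slc16a5 at 15.8 and Slc16a7, another carrier of monocarboxylates, at 6.53. Slc16a11 had a level of 3.38, Slc16a13 of 1.30 and Slc16a9 of 0.925. On this scale Slc16a1 was above Slc16a7, Slc16a6 and Slc16a3, the other family members named here as carriers of monocarboxylates such as ketone bodies or lactate. Without division by length, the mean normalized count was 2154 for Slc16a7 and 3788 for Slc16a1, and Slc16a10 was higher at 4509. Slc16a3, the lactate exporter of glycolytic cells, had a mean normalized count of 9.27 and Slc16a4 of 1.46, while Slc16a8 and Slc16a14 are listed at 0. Bsg, the chaperone that brings the Slc16a1 protein to the plasma membrane, had a level of 221, or 7.75-fold that of Slc16a1. By mean normalized count, without division by length, Bsg was 2.67-fold above Slc16a1. Emb, the alternative chaperone, had a level of 0.192.

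The list of other thiolases held 8 genes, all within range, with levels from 15.7 for Acat2, the cytosolic acetoacetyl-CoA thiolase, to 966 for Scp2, and a median of 106. It includes Hadha, the subunit of the mitochondrial trifunctional protein that is not itself a thiolase, and the 7 genes without it, a choice made after the values were seen, had a median of 57.6. Acat1 was 10.4-fold above Acat2, and Acaa2, the thiolase of mitochondrial fatty acid oxidation, was 3.50-fold above Acat1. By mean normalized count, without division by length, these ratios were 15.7-fold and 1.56-fold. The 9 regulators of ketone synthesis were all within range, with a median level of 22.4. They included Ppara, the nuclear receptor that activates the pathway in fasting, at 95.1. Cpt1a, which admits long-chain fatty acids to the mitochondria, was at 235, while Mtor was lowest at 6.40. The mean normalized count of Mtor, without division by length, was 1646, and the lowest of the 9 was 221, for Fgf21.

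**Figure D4:**
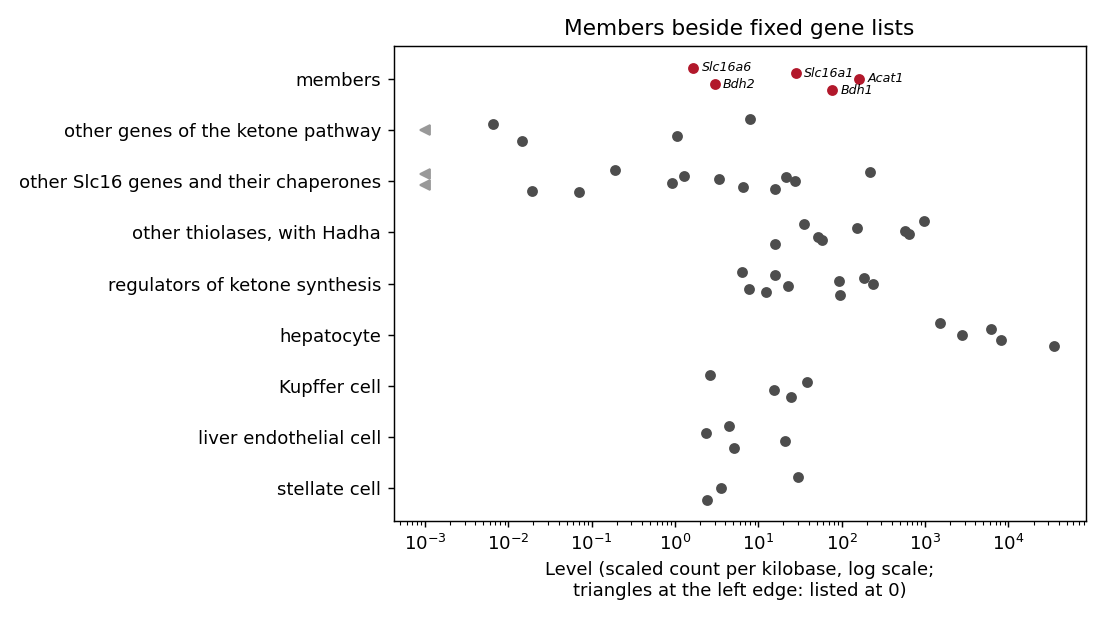
Levels (scaled count per kilobase of the longest transcript, log axis) of the 5 ketone body genes, in red with their names, beside the other lists of genes, with 1 point for each gene and triangles at the left edge for genes listed at 0. The members span 1.66 to 162.7, below the 5 hepatocyte markers, the lowest of which is at 1494.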

How the data were processed

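Hepatic mRNA libraries of 3 WT and 3 Pai-1+/- mice were sequenced by the authors as single-end reads of 75 bases, aligned to mm10 with STAR and analysed with DESeq2. HOMER is also listed in the submitters' processing notes. Versions, annotation and strand setting are not given in the sources used here. The authors deposited 1 signal per gene, its count after division by size factors, averaged over the libraries of both genotypes. The authors' own comparison of the genotypes (fold changes, standard errors, statistics and p-values) was not used. The 6 columns of whole-number counts carry animal numbers that match no label and were not used. The planned edgeR test and its alternatives were therefore not run, and depth per library, SDs and p-values are not given.

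Levels are mean normalized counts scaled to a sum of 1000000 over all genes, per kilobase of the longest GENCODE M21 transcript (GRCm38), matched by symbol. Ranks and percentiles are among genes with a mean above 10. Stretches of 75 bases were matched exactly, on both strands, against all GENCODE transcripts. Members and lists were chosen with earlier results of these data known. Some genes are not reported here. The genes named are the members and genes of the lists, and genes overlapping a member were chosen after their values were seen. Functions were checked on simulated data. Calculations used Python 3.11.15 with pandas 2.3.3 and NumPy 2.4.6, and Matplotlib 3.10.9 drew the plots.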

Additional observations from a re-analysis of the deposited data

How the results depend on the processing

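The values are means over all libraries, and their precision was not estimated because the columns of counts per animal were not used. With the coding length, the levels (scaled counts per kilobase) were 436 for Acat1, 237 for Bdh1, 85.2 for Slc16a1, 12.3 for Bdh2 and 3.85 for Slc16a6. With the median length of the protein-coding transcripts they were 152 for Bdh1, 8.42 for Bdh2 and 4.83 for Slc16a6, and the values of Acat1 and Slc16a1 did not move. Without the 10 most abundant genes in the sum they were 195.5 for Acat1, 92.6 for Bdh1, 34.2 for Slc16a1, 3.60 for Bdh2 and 1.996 for Slc16a6. With merged exons, which were added once the data had been seen, they were 147 for Acat1, 62.7 for Bdh1, 2.21 for Bdh2 and 1.43 for Slc16a6. Among all genes with a mean above 0, the percentiles were 98.0 for Acat1, 95.8 for Bdh1, 90.2 for Slc16a1, 57.3 for Bdh2 and 49.1 for Slc16a6, so Bdh2 moved to the upper side of the median. These moves follow from the lengths, the sum and the number of genes ranked. No paired analysis was possible because the columns of the counts carry animal numbers that no label ties to a sample, a replicate number or a genotype. For the same reason the DESeq2 fit, the fit without a filter on low counts and the fits that leave out a mouse were not run.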
